A study of Mus musculus with 12 samples.

Results

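The Wnt pathway genes described here were Frat1, Frat2, Axin2, Ctnnb1, Sfrp1, Sfrp2, Sfrp4, Frzb, Dkk2 and Dkk3 in mouse aorta, taken as every non-control probe whose gene name was one of them. They were chosen by name with measured values known, and Frat2 in particular was selected on the difference between rapamycin and DMSO. These were 10 genes with 12 probes among 55675 probes on the array, and 8 of the 10 genes passed the filter on dim probes. RNA came from a 10 mm length of aorta of male C57BL/6J mice aged 11 to 14 weeks and was measured on 12 single-colour arrays in 4 groups of 3. The series places all groups at day 3. The array titles and design also call the DMSO group Pre, a name that in the study's tissue staining stands for mice before the challenge, so whether these mice received vehicle up to day 3 is not settled, which bears on every difference from DMSO. By its label the DMSO group had no other agent, the rapamycin group received 2 mg/kg/day of this mTOR inhibitor by injection, BA+DMSO received beta-aminopropionitrile (BAPN, a lysyl oxidase inhibitor, 150 mg/kg/day) and angiotensin II (1 μg/kg/min) by pump, and BA+rapamycin received all of these. The series gives 3 mice per group but ties no array to a mouse, so p-values measure the spread between arrays.

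Wnt proteins are secreted ligands that bind Frizzled receptors with the co-receptors Lrp5 and Lrp6. Without a ligand, a destruction complex of Axin, Apc, Gsk3 and casein kinase 1 marks beta-catenin for degradation. With a ligand, Dishevelled blocks this complex, and beta-catenin enters the nucleus and acts with TCF and LEF factors. Frat1 and Frat2 encode small Gsk3-binding proteins that keep Gsk3 from Axin, Ctnnb1 encodes beta-catenin, and Axin2 is both a scaffold of the complex and a widely used target gene. Sfrp1, Sfrp2, Sfrp4 and Frzb encode secreted Frizzled-related proteins that bind Wnt ligands, and Dkk2 and Dkk3 belong to the Dickkopf family of secreted proteins.

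Levels are log2 processed signals relative to the 75th percentile of the same array (levels below 0 are dimmer than it), and differences are differences of these log2 levels. A probe was called when limma's adjusted p (Benjamini-Hochberg over all 27801 probes tested) was under 0.05. Groups without overlap were common among these probes, at 34.6% between BA+DMSO and DMSO and 21.5% between rapamycin and DMSO. The share was 65.9% between BA+rapamycin and rapamycin and 14.5% between BA+rapamycin and BA+DMSO.

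The arrays did not stand equally well. BA+DMSO replicate 2 correlated at a mean r of 0.978 with the BA+rapamycin arrays and 0.959 with the rest of its own group. BA+DMSO replicate 3 stood at 0.974 with the DMSO arrays and 0.962 with its own group. BA+DMSO replicate 1 stood at 0.973 with the BA+rapamycin arrays and 0.971 with its own group. Here r is over all probes and is a description. The 75th percentile signal was 221 to 337 on the unchallenged arrays and 74.6 to 132 on the challenged ones, except BA+DMSO replicate 3 at 246. It was 257 to 337 in rapamycin and 74.6 to 109 in BA+rapamycin, without overlap. A fit with this brightness as a covariate thus cannot well tell brightness from challenge between these 2 groups. All DMSO arrays lay on slide 1 with rapamycin replicate 1, and the other 8 arrays on slide 2, so challenge and slide were bridged only by the rapamycin group. Results that rest on BA+DMSO replicate 2 are given with and without it.

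Frat1 and Frat2 are neighbours on chromosome 19 on opposite strands, with no gene wholly between them in the RefSeq table. The first Frat2 probe lay at chr19:41920708-41920767 on the minus strand and the second, 998 bases away on the 5′ side, at chr19:41921706-41921765, while the Frat1 probe lay at chr19:41906864-41906923 on the plus strand (build mm9). The first 30 bases of each 60-base probe, read from the scanner files, are shown because the readings of the genes rest on them.
Frat1: aagtgcttggaaacactgttcactctgagc
Frat2, first probe: gagggcgcctctcctgctaaacctgtcagt
Frat2, second probe: gggggtggccgaagcggaccggactcagtc
The Frat1 probe and the first Frat2 probe shared no run over 5 bases and at most 21 of 60 bases in any ungapped alignment. Their GC contents were 41.7% and 45.0%, and that of the second Frat2 probe was 71.7%.

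The promoter windows of the pair (RefSeq, build GRCm38.p6, 250 bases before to 50 after the start) are shown because Frat1 and the first Frat2 probe had their highest group means in rapamycin. Capitals mark the longest run of bases that the windows share, 63 bases long, which was in the window of no other gene among 32851 windows in the table. Frat1 was read at chr19:41829720-41830019 on the plus strand and Frat2 at chr19:41848083-41848382 on the minus strand, both 5′ to 3′.
Frat1 promoter: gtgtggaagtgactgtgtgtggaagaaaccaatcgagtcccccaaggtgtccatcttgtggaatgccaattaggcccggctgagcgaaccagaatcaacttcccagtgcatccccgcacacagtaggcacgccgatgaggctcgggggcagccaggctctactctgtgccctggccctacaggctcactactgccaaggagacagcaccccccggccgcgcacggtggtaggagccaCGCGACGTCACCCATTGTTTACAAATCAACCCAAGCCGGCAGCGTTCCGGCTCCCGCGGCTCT
Frat2 promoter: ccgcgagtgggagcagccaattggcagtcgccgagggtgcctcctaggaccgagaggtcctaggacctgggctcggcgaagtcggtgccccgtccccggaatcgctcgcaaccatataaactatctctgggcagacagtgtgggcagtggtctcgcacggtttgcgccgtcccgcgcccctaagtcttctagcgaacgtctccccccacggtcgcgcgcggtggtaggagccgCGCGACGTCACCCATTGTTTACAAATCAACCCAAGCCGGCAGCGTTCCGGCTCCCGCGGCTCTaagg
The run took positions 238 to 300 of the Frat1 window and 234 to 296 of the Frat2 window. With the runs laid on each other, 49.0% of 296 aligned bases were identical. The TCF/LEF core CTTTGA, searched on both strands, was in neither window. Windows were in the table for 7 of the 10 genes, and of their 8 windows only that of Frzb held the core, which was in 16.0% of all windows. A match is a description of letters and not a binding site.

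The first Frat2 probe was the single probe called between rapamycin and DMSO, on which the gene was selected, so its values in that comparison are a description without a test. Frat2 read -2.61, -2.64 and -2.30 in DMSO and -0.50, -0.94 and -0.44 in rapamycin. The groups did not overlap, and the difference was 1.89, or 3.71-fold (n = 3 per group). Within slide 1, rapamycin replicate 1 lay 2.02 above the mean of the 3 DMSO arrays. Among the arrays that share a date in their titles (2 of each group), the difference was 1.78. With the normexp background correction it was 1.03, the smallest of the alternative settings.

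Under the challenge Frat2 read -1.51, -1.97 and -2.00 in BA+DMSO and -1.02, -0.80 and -1.09 in BA+rapamycin. These groups did not overlap either, and every BA+rapamycin array was higher. BA+rapamycin was higher by 0.86 (SE 0.20, 95% interval 0.41 to 1.31, unadjusted p = 0.00149), but limma's adjusted p over all probes was 0.0918, so that it was not called. The difference on which Frat2 was selected did not use these 6 arrays, although the error of the fit was shared by all 12. On BA+DMSO replicate 2 the spot was not well above background. Under the replicate block by title date, where BA+DMSO is 1 array, the difference was 0.49 (unadjusted p = 0.208, limma adjusted p = 0.378). Without BA+DMSO replicate 2 it was 0.79 and was called (limma adjusted p = 0.0185), with 11151 of 28239 probes (39.5%) called where 78 had been.

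The order of the group means of Frat2 was rapamycin at -0.63 ± 0.27, BA+rapamycin at -0.97 ± 0.15, BA+DMSO at -1.83 ± 0.27 and DMSO at -2.52 ± 0.19 (mean ± SD, n = 3 each). Rapamycin and BA+rapamycin, neighbours in this order, overlapped (difference -0.34, limma adjusted p = 0.191). BA+DMSO exceeded DMSO by 0.69 (SE 0.20, limma adjusted p = 0.0364), without overlap, a call lost in 8 of the 12 fits that left out 1 array. Both of these comparisons reuse arrays of the difference on which Frat2 was selected, so their p-values only place the probe among all probes. The rise with rapamycin was 1.89 in unchallenged and 0.86 in challenged mice, and as the first of these selected the gene, their difference is given without a test.

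The second Frat2 probe did not show this order. It read -2.97, -3.55 and -3.81 in DMSO and -3.32, -3.33 and -3.32 in rapamycin, a difference of 0.12 (SE 0.49, limma adjusted p = 1.00). With the challenge it read -2.44, -2.23 and -4.50 (BA+DMSO) and -2.40, -2.03 and -2.44 (BA+rapamycin). Its BA+rapamycin arrays were above all rapamycin arrays, by 1.03, but this was not called (limma adjusted p = 0.106). In the fit without BA+DMSO replicate 3 the same difference was called (limma adjusted p = 0.00352), as were 50.5% of probes. BA+DMSO minus DMSO was 0.39 (limma adjusted p = 0.605). It was 1.11 and called without that replicate (limma adjusted p = 0.00624). The spot was not well above background on DMSO replicate 3 and BA+DMSO replicate 3. The 2 probes of Frat2 thus disagreed on rapamycin alone, and the cause was not tested.

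Frat1 had the same order of groups as the first Frat2 probe. It read -2.49, -2.59 and -2.71 in DMSO and -1.44, -0.88 and -0.99 in rapamycin. The challenged arrays read -2.01, -1.94 and -1.57 (BA+DMSO) and -1.12, -1.66 and -1.41 (BA+rapamycin). DMSO was below every other group without overlap, and the spot was well above background on all 12 arrays. Rapamycin exceeded DMSO by 1.50 (SE 0.21, 2.82-fold), which was not called (limma adjusted p = 0.236). The difference was 1.16 within slide 1 and 1.72 within the shared title date. BA+DMSO exceeded DMSO by 0.76 (SE 0.21) and was called (limma adjusted p = 0.0272), but not when any of the 3 DMSO arrays was left out. It was 0.26 with the slide as a fixed block and 0.20 under the replicate block by title date (limma adjusted p = 0.799 and 0.670), neither called. BA+rapamycin exceeded BA+DMSO by 0.44 with overlapping arrays (95% interval -0.02 to 0.90, limma adjusted p = 0.258).

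**Figure D1:**
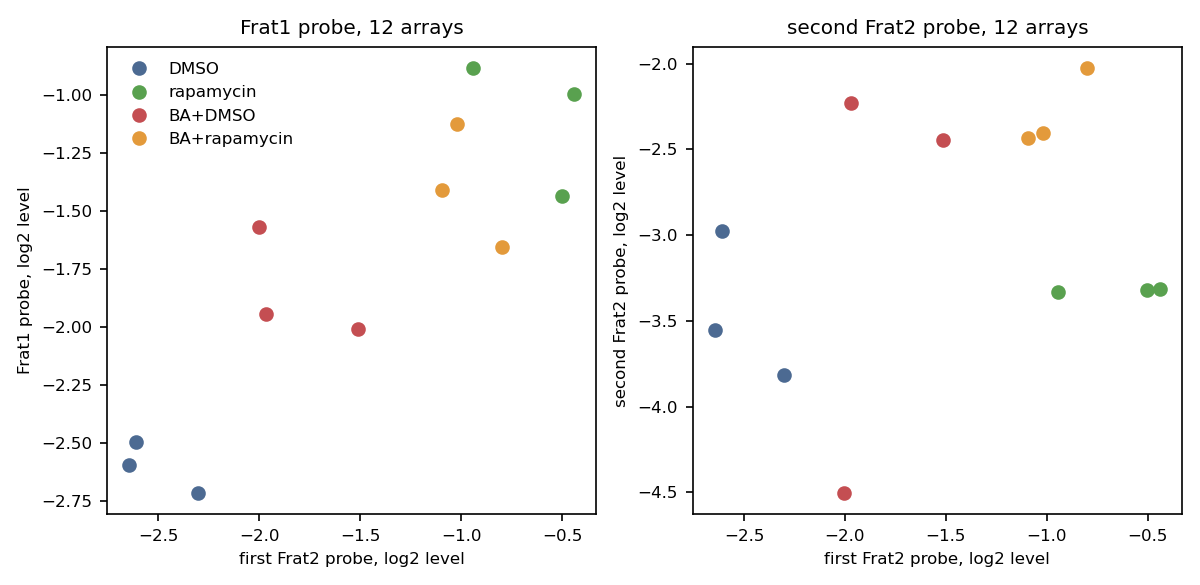
Level of the Frat1 probe (left) and of the second Frat2 probe (right) against the first Frat2 probe, as log2 signal relative to the array's 75th percentile, with 1 point per array coloured by group. Frat1 is lowest with the first Frat2 probe in the DMSO arrays, whereas the second Frat2 probe keeps the rapamycin arrays at -3.32 to -3.33.

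Among 10463 gene names measured well above background on all 12 arrays, those whose levels ran most like Frat2 were Npm1 (r = 0.964), Dok1 (r = 0.880), Map3k6 (r = 0.872), Fam100a (r = 0.864) and Eef1d (r = 0.863), and Frat1 came sixth (r = 0.856). Here r is Pearson's over 12 arrays that share groups, slides and brightness, and is given as a description. After the group means were taken out, r was 0.79 for Npm1, 0.90 for Dok1, 0.49 for Map3k6, 0.12 for Fam100a, -0.11 for Eef1d and -0.62 for Frat1. Npm1, which encodes the nucleolar protein nucleophosmin, had group means of 5.17 (DMSO), 5.66 (rapamycin), 5.35 (BA+DMSO) and 5.68 (BA+rapamycin). The lowest were Inpp5j (r = -0.891), Lars2 (r = -0.872) and Unc119 (r = -0.869).

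Axin2 gave no reading. Neither of its probes, at chr11:108812034-108812093 and chr11:108803927-108803986 on the plus strand, was well above background on any array, and they were not tested. Its level as a target gene therefore could not be compared between groups at this brightness.

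Ctnnb1, at chr9:120869274-120869333 on the plus strand, was the mean of 2 spots and was bright on all arrays. It read 4.27, 4.22 and 3.97 in DMSO and 4.02, 3.78 and 4.30 in rapamycin. The challenged arrays read 3.68, 2.30 and 4.07 (BA+DMSO) and 2.67, 2.99 and 2.95 (BA+rapamycin). BA+rapamycin was below both unchallenged groups without overlap, while BA+DMSO spread from the lowest value of all to the range of DMSO. BA+rapamycin was lower than rapamycin by 1.17 (SE 0.37, 2.24-fold, limma adjusted p = 0.0277). With the log2 brightness of each array as a covariate this difference turned to 0.23 and was not called (limma adjusted p = 0.775). The call was also lost with the slide as a fixed block (-1.17, limma adjusted p = 0.0662). Under the replicate block by title date, where no date holds arrays of both groups, the difference was -1.27. The call was lost too without rapamycin replicate 1 or 3 or any single BA+rapamycin array. BA+DMSO minus DMSO was -0.81 (limma adjusted p = 0.144). It was -0.28 without BA+DMSO replicate 2, and -1.17 and called without replicate 3 (adjusted p = 0.0239). BA+rapamycin minus BA+DMSO was -0.48 (limma adjusted p = 0.426). Without BA+DMSO replicate 2 Ctnnb1 fell by 1.00 in this comparison and was called (adjusted p = 0.00628), and without replicate 3 the difference was -0.12 (adjusted p = 0.939).

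The called differences among the genes of secreted Frizzled-related proteins went in different directions. Sfrp1, at chr8:24559438-24559497 on the plus strand, read 1.15, 1.31 and 1.59 in DMSO and 1.86, 2.00 and 1.62 in rapamycin, without overlap. In BA+DMSO it read 2.89, 1.66 and 2.16 and in BA+rapamycin 1.92, 2.02 and 2.11. DMSO was below every other group. BA+DMSO exceeded DMSO by 0.89 (SE 0.27, limma adjusted p = 0.0413). This call was lost in 10 of the 12 fits that left out 1 array (all but those without BA+DMSO replicate 2 or 3), under the fixed slide block and with brightness as a covariate (adjusted p = 0.0757). Under the replicate block by title date the difference was 1.93 and not called (adjusted p = 0.0625). Rapamycin minus DMSO was 0.48 and not called (adjusted p = 1.00).

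Sfrp4, at chr13:19724488-19724547 on the plus strand, was highest in BA+rapamycin, where it read 5.71, 5.73 and 5.54. It read 4.80, 2.95 and 4.81 in BA+DMSO, 3.51, 3.70 and 3.86 in rapamycin, and 3.89, 2.74 and 2.47 in DMSO. The BA+rapamycin arrays were above all 9 others. The rise over rapamycin was 1.97 (SE 0.48, 3.92-fold, limma adjusted p = 0.00938). It was 3.57 with brightness as a covariate (adjusted p = 0.0184). Under the replicate block by title date, where no date holds arrays of both groups, the rise was 0.47. The difference from BA+DMSO, 1.47, was not called (adjusted p = 0.159) and was 0.85 without BA+DMSO replicate 2 (adjusted p = 0.0737). BA+DMSO minus DMSO was 1.15 (adjusted p = 0.111), and 1.77 and called without that replicate (adjusted p = 0.00555).

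Sfrp2, at chr3:83577864-83577923 on the plus strand, was lowest in BA+rapamycin. It read 5.22, 5.51 and 5.34 in DMSO and 5.49, 5.34 and 5.42 in rapamycin. With the challenge it read 6.24, 4.24 and 5.09 (BA+DMSO) and 4.04, 4.01 and 3.76 (BA+rapamycin). BA+DMSO replicate 2 lay near the BA+rapamycin arrays and replicate 1 above every other array. BA+rapamycin was below rapamycin by 1.48 (SE 0.38, 2.79-fold, limma adjusted p = 0.0120), which passed also with the slide as a fixed block. Under the replicate block by title date the difference was -1.41, given without a call because no date holds arrays of both groups. With brightness as a covariate it was -0.94 and not called (adjusted p = 0.430). BA+rapamycin minus BA+DMSO was -1.26 without overlap (unadjusted p = 0.00704, limma adjusted p = 0.141), and -1.73 and called without BA+DMSO replicate 2 (adjusted p = 0.00349).

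Frzb, at chr2:80252582-80252641 on the minus strand, was called in no comparison of all 12 arrays without a covariate. It read 0.58, 0.48 and 0.40 in DMSO and 0.78, 0.80 and 0.65 in rapamycin. With the challenge it read 1.85, 0.023 and 1.81 (BA+DMSO) and 0.53, 0.54 and 0.64 (BA+rapamycin). The BA+DMSO arrays 1 and 3 were the highest of all and array 2 the lowest. BA+DMSO minus DMSO was 0.74 (limma adjusted p = 0.200), and without replicate 2 it was 1.34 and called (adjusted p = 0.000131). With brightness as a covariate it was 1.50 and called (adjusted p = 0.0221). BA+rapamycin minus BA+DMSO was -0.66 (adjusted p = 0.329), and -1.26 and called without that replicate (adjusted p = 0.00127).

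The Dickkopf genes differed in what could be measured. Dkk2, at chr3:131842357-131842416 on the plus strand, was well above background on no DMSO array, 1 rapamycin array, 2 BA+DMSO arrays and 1 BA+rapamycin array, and was not tested. Its BA+DMSO mean was at least 2.01-fold above the DMSO bound, with 2 of the 3 BA+DMSO arrays measured. This rested on single arrays, as the bound was 1.14-fold without BA+DMSO replicate 1 and 3.51-fold without replicate 2. The bound takes, on each DMSO array, the lowest level among probes well above background or the probe's own if higher. Dkk3, at chr7:119259556-119259615 on the minus strand, read 6.33, 6.52 and 6.49 in DMSO and 6.14, 6.09 and 6.19 in rapamycin. With the challenge it read 5.75, 5.33 and 6.58 (BA+DMSO) and 5.38, 5.36 and 4.96 (BA+rapamycin). The rapamycin arrays were below the DMSO arrays by 0.30, with no call (limma adjusted p = 1.00), and BA+rapamycin was below rapamycin by 0.91 (SE 0.27, 1.88-fold, adjusted p = 0.0222). With brightness as a covariate the latter difference was -0.010 (adjusted p = 0.989), and it was not called under the fixed slide block or the replicate block by title date.

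**Figure D2:**
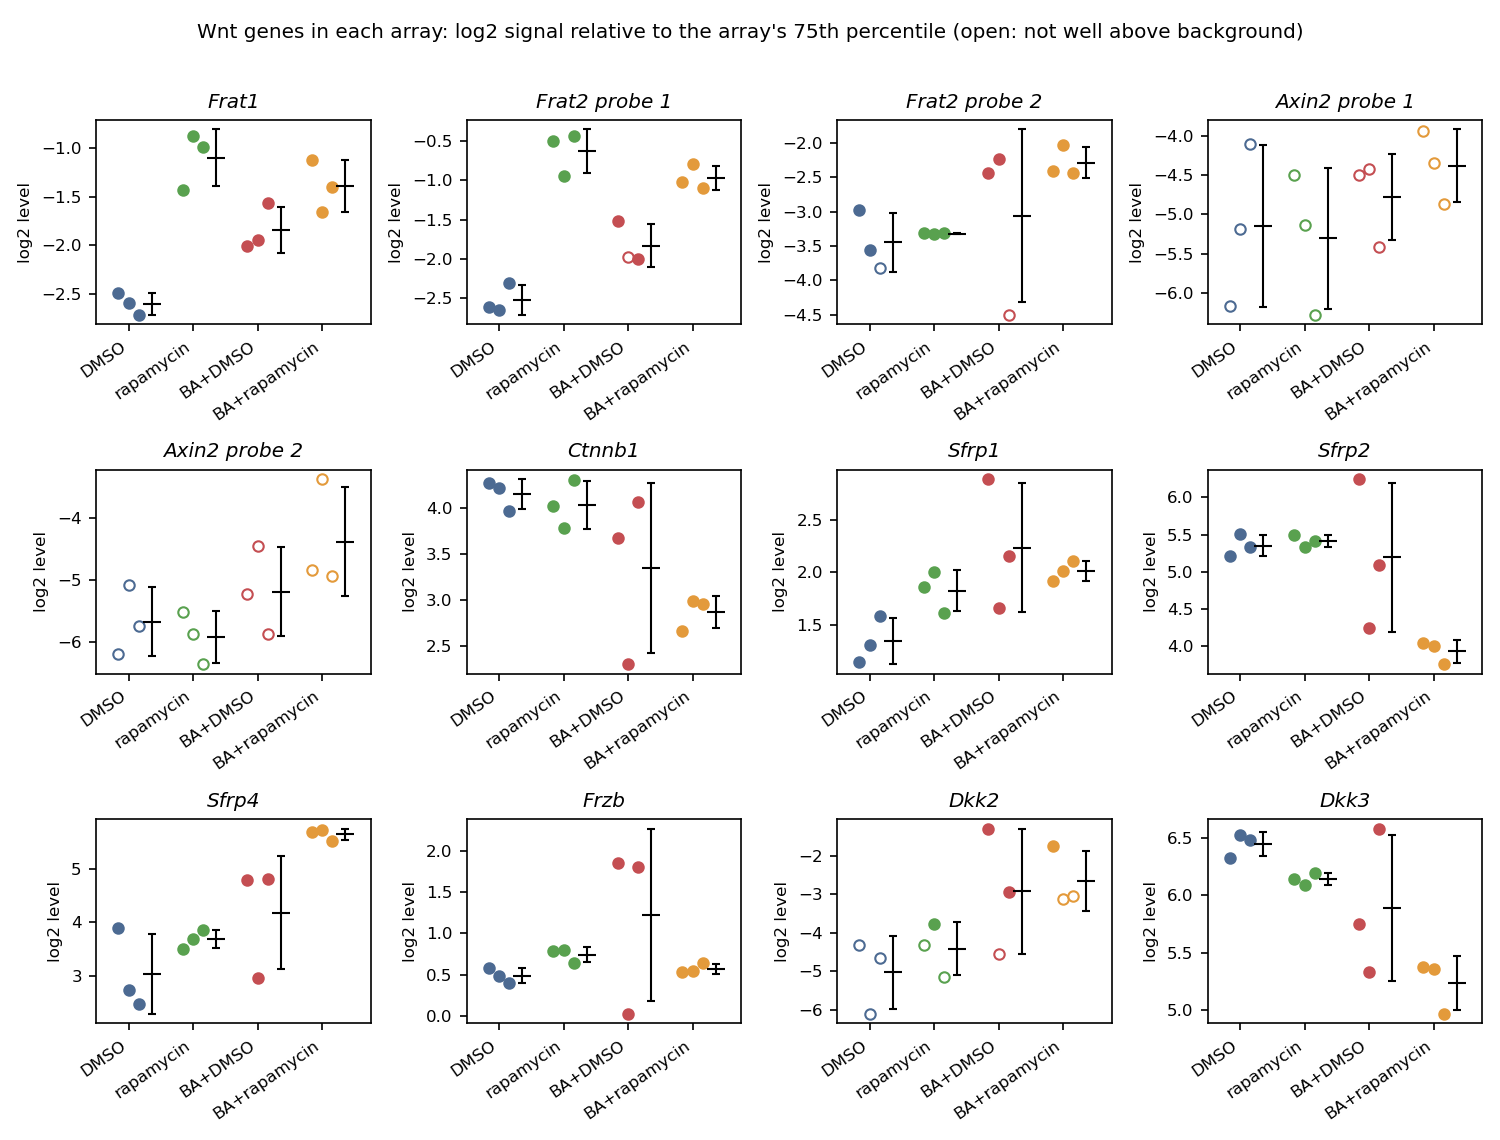
Log2 level, relative to the array's 75th percentile, of the 12 probes in each array by group. Each point is 1 array, open where the spot was not well above background, and the bar beside each group is the mean with SD (n = 3). BA+DMSO spreads widely for Ctnnb1, Sfrp2, Sfrp4, Frzb and Dkk2, with replicate 2 the lowest of its group, and Sfrp4 also spreads in DMSO. It spreads widely too for the second Frat2 probe, where replicate 2 is the highest of its group and replicate 3 the lowest.

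Counted over the genes, the challenge on vehicle (BA+DMSO minus DMSO) called 3 of the 8 tested, Frat1, Frat2 and Sfrp1, all higher, where 20.5% of all probes were called (9.65% higher and 10.8% lower). The median difference was 0.71 over the 8 genes and -0.04 over all probes. Frat2 was selected on a difference from the same DMSO arrays, so its part in this count and median is a description. With the slide as a fixed block none of the 8 was called, where 0.054% of all probes were called. The replicate block by title date leaves out BA+DMSO replicates 2 and 3, so only differences are given for it. They were 0.20 for Frat1, 1.02 for Frat2 and 1.93 for Sfrp1. Without BA+DMSO replicate 2 there were 5 calls, since Sfrp4 and Frzb were added, where 27.9% of probes were called. Without BA+DMSO replicate 3 there were also 5, with Ctnnb1 and Dkk3 added, both lower, where 38% of probes were called. Leaving out any of the 3 DMSO arrays left 0, where 7.13% to 11.7% of probes were called. Leaving out other single arrays left 1 to 5, where 11.2% to 38% of probes were called. With array brightness as a covariate the 3 called were Frat1, Sfrp4 and Frzb, where 18.3% of probes were called.

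Between BA+rapamycin and BA+DMSO, limma called 0 of the 8, against 0.281% of all probes (0.0719% higher and 0.209% lower; 0.305% with 1 probe per gene name). Of the 8, Frat2, Sfrp2, Sfrp4 and Dkk3 had an unadjusted p under 0.05, as did 20.1% of all probes. Frat2, Sfrp2 and Sfrp4 had groups that did not overlap, as did 14.5% of all probes. Without BA+DMSO replicate 2 it called 5, Frat2 higher and Ctnnb1, Sfrp2, Frzb and Dkk3 lower, against 39.5% of all probes.

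Rapamycin alone (rapamycin minus DMSO) called 1 of the 8, Frat2, which the choice of genes fixed, where 0.0036% of all probes, or 0.00499% with 1 probe per gene name, were called. Between BA+rapamycin and rapamycin 4 were called, Sfrp4 higher and Ctnnb1, Sfrp2 and Dkk3 lower, where 41.7% of probes were called (18.9% higher and 22.9% lower). The median over the 8 was -0.32, against -0.08 over all probes. Under the fixed slide block the calls of Sfrp2 and Sfrp4 stood, where 28.5% of all probes were called. Under the replicate block by title date no date holds arrays of both groups, so no count is given. With brightness as a covariate Sfrp4 alone of the 8 was called, and the calls over all probes fell from 11602 to 1786. The comparisons share arrays, so their values are not independent of each other. The interaction called 0 of the 8 and 0% of all probes with limma, where 1702 probes had an unadjusted p under 0.05. Without BA+DMSO replicate 2 it called 4, Frat1, Sfrp2, Frzb and Frat2, the last of which was selected on a part of it, where 10.4% of 28239 probes were called.

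**Figure D3:**
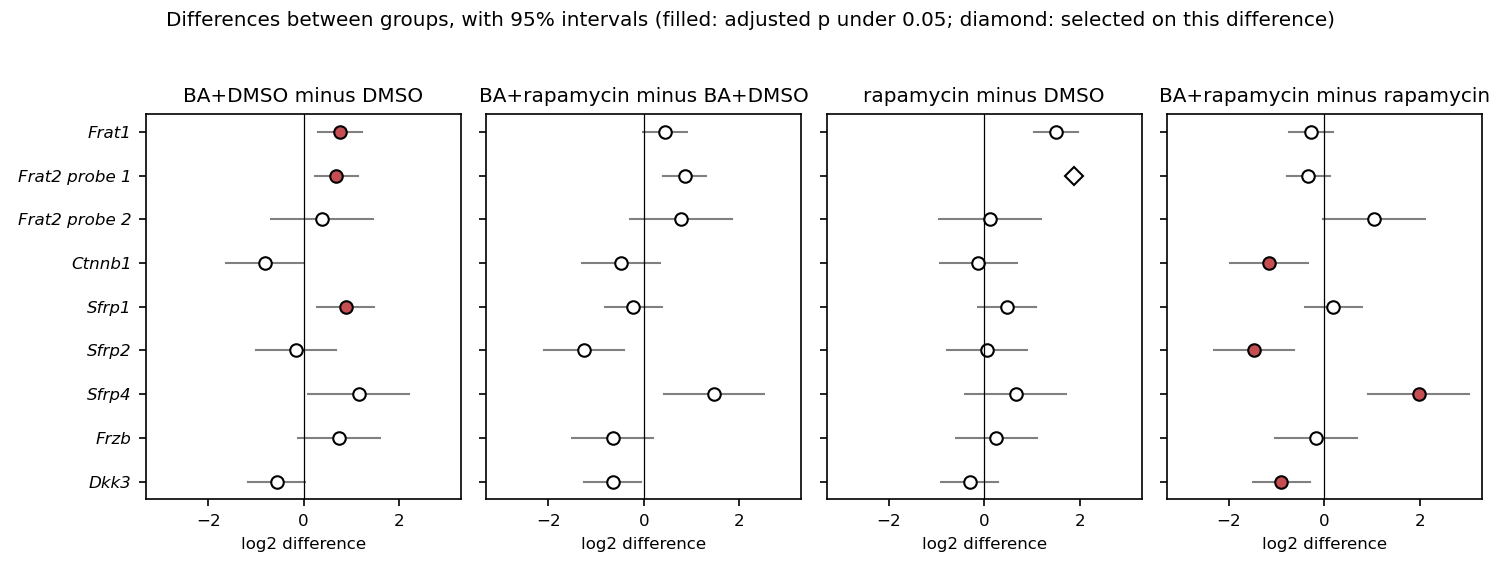
Log2 difference between groups (points) with 95% intervals (lines) for the 9 tested probes in the 4 pairwise comparisons. Filled points had an adjusted p under 0.05, and the diamond marks the difference on which Frat2 was selected, shown without an interval. Sfrp4 and Sfrp2 lie on opposite sides of 0 in both comparisons that involve BA+rapamycin.

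**Figure D4:**
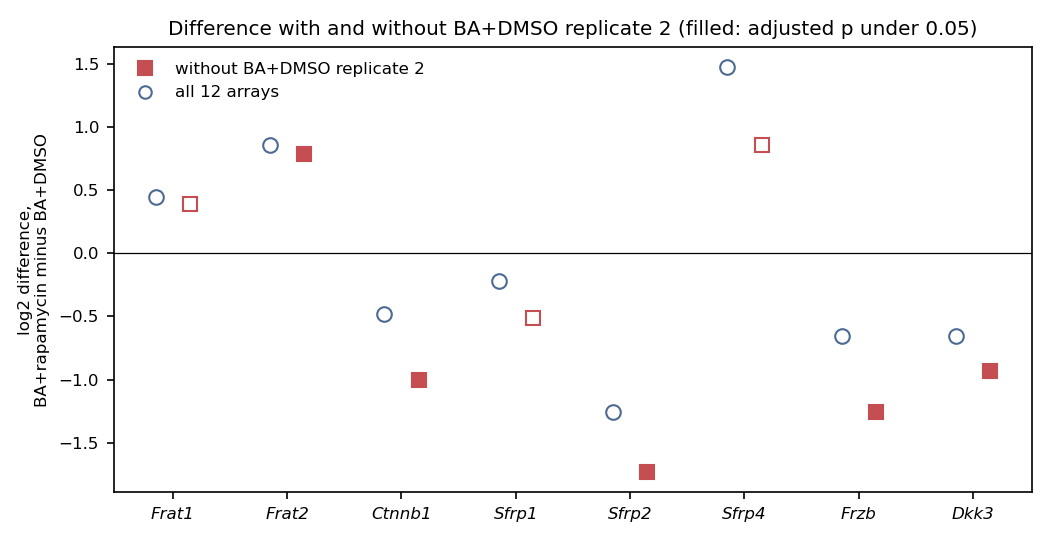
Log2 difference between BA+rapamycin and BA+DMSO for the 8 tested genes, with all 12 arrays (circles) and without BA+DMSO replicate 2 (squares), filled where the adjusted p was under 0.05. No circle is filled, and the squares of Frat2, Ctnnb1, Sfrp2, Frzb and Dkk3 are.

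The wider pathway was read from 116 genes in 8 lists, of which 90 had a tested probe. The challenge on vehicle called 26 of the 90 (28.9%), 12 higher and 14 lower, against 21.4% with 1 probe for each gene name on the array. The median difference was -0.12. Among the 26 was Frat2, selected on a difference from the same DMSO arrays. Under the fixed slide block 0 of these were called, where 0.054% of all probes were called. Under the replicate block by title date BA+DMSO is 1 array, so no count is given. The challenge under rapamycin called 47 (52.2%), 17 higher and 30 lower, against 42.7% by gene name. These were 8 with brightness as a covariate (6.42% of all probes) and 24 to 56 without single arrays (23.2% to 56.8%). No count is given here for the replicate block by title date either, as no date holds both rapamycin and BA+rapamycin arrays. Rapamycin under challenge called 0 of 90 with limma (34 without BA+DMSO replicate 2, where 39.5% of probes were called), and rapamycin alone called only Frat2.

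Of the ligands, 8 of 19 were tested. The challenge called 2 higher (25%, against 21.4% by gene name), Wnt1 (0.75, limma adjusted p = 0.0238) and Wnt6. Wnt6 was well above background on 1 DMSO and 2 BA+DMSO arrays. It passed the filter only through the rapamycin group, so no difference is given for it. Wnt1 and Wnt5b were higher in BA+rapamycin than in rapamycin (1.16 and 0.69). The other tested probe of Wnt1 was called in neither comparison. Of the genes for Wnt secretion and R-spondins, which strengthen the Wnt signal at the receptor, 4 of 6 were tested. Rspo1 rose with the challenge by 1.41 (SE 0.41) and Porcn, which attaches a lipid to Wnt proteins, fell by 1.16. Porcn (-1.39) was lower in BA+rapamycin than in rapamycin. Rspo3 was also called lower there, but was well above background on 1 of the 3 BA+rapamycin arrays. It passed the filter only through DMSO and rapamycin, where it was high, so no difference is given for it.

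Among 18 tested receptor genes, the challenge on vehicle called 5 (27.8%, against 21.4% by gene name over the array). Ptk7, a co-receptor of the planar polarity branch, was 3.05-fold higher. Fzd8 (2.30-fold) and Fzd1 (1.94-fold) were lower. Ror1 was also called lower, but its probe was well above background on 1 of the 3 BA+DMSO arrays. It passed the filter only through DMSO and rapamycin, where it was high, so no fold is given. The other tested probe of Ror1 differed by -0.76 (limma adjusted p = 0.0480). Lgr4, an R-spondin receptor, was not well above background on any BA+DMSO array and was at least 1.77-fold lower than in DMSO. It passed the filter only through DMSO and rapamycin, where it was high, so this is a description without a test. Under rapamycin 3 receptor genes were called higher and 7 lower (55.6%, against 42.7% by gene name). Ptk7 (4.36-fold) and Fzd5 (4.22-fold) were among those that rose, but the other tested probe of Fzd5 read -0.23 and was not called. Lgr4 was at least 1.17-fold lower, again as a description without a test.

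Of 10 tested secreted inhibitors, the challenge on vehicle called 3, 1 higher and 2 lower (30%, against 21.4% by gene name). Under rapamycin 2 were higher and 4 lower (60%, against 42.7%). Sost and Wif1 fell in both comparisons. Sost encodes sclerostin, which binds Lrp5 and Lrp6, and its group means were 4.79 (DMSO), 4.72 (rapamycin), 2.61 (BA+DMSO) and 0.84 (BA+rapamycin). It was 4.54-fold lower with the challenge on vehicle (limma adjusted p = 0.0105) and 14.7-fold lower under rapamycin (adjusted p = 0.000393). Wif1, which binds Wnt ligands, was 3.18-fold and 9.87-fold lower. With the slide as a fixed block neither Sost nor Wif1 was called for the challenge on vehicle. Sfrp5 was 2.58-fold higher in BA+rapamycin than in rapamycin.

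In the list of Dishevelled, Frat and the destruction complex, 23 of 24 genes were tested. The challenge on vehicle raised 3 (Dvl3 by 1.49, Frat1 and Frat2) and lowered 6, where 9.65% of all probes were higher and 10.8% lower. Frat2 was selected on a difference from the same DMSO arrays, so its rise here is a description. Among the 6 lowered were Nkd1, a Dishevelled-binding inhibitor, by 1.96, and Btrc, a subunit of the ligase that degrades beta-catenin, by 1.44. Under rapamycin 3 were higher and 10 lower, with Dvl3 at 1.96, Nkd1 at -2.36 and Btrc at -1.35. Over all probes 18.9% were higher and 22.9% lower there. The other tested probe of Nkd1 was called in both comparisons, and that of Btrc in neither.

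Of 15 target genes 10 were tested, without Axin2, Lgr5, Rnf43, Sp5 and Dkk1. The challenge on vehicle called 4 (40%, against 21.4% by gene name). Wisp1 (5.52-fold), Ccnd1 (3.67-fold) and Cd44 (2.51-fold) were higher and Nkd1, given above, was lower. Znrf3, Notum, Tcf7 and Lef1 were called neither here nor under rapamycin. Under rapamycin 6 were called (60%, against 42.7% by gene name). Wisp1 (4.73-fold), Myc (3.59-fold), Cd44 (3.05-fold) and Ccnd1 (2.25-fold) rose, and Nkd1 (5.12-fold) fell. Apcdd1 was also called lower, but was well above background on 1 BA+rapamycin array, so no fold is given for it. Wisp1 encodes a matricellular protein and Ccnd1 encodes cyclin D1. These genes are also expressed outside Wnt signalling.

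**Figure D5:**
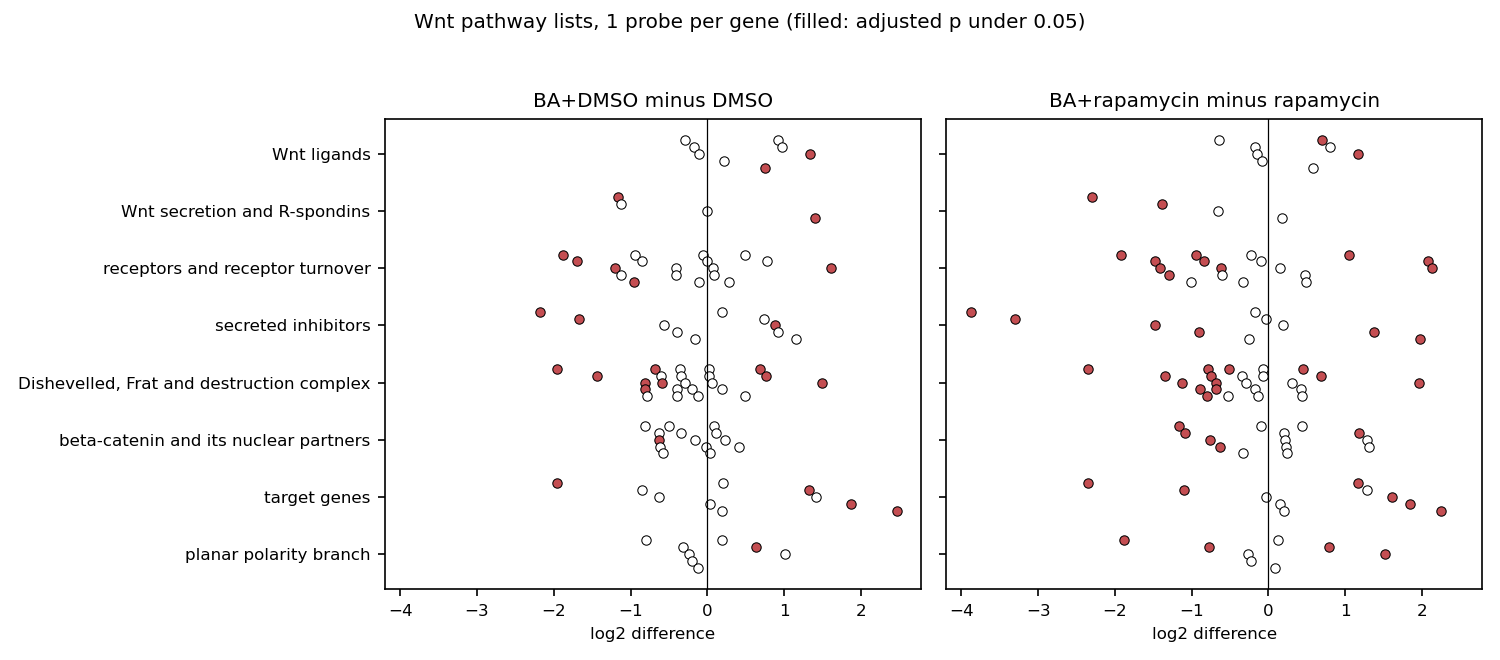
Log2 difference of each tested gene of the 8 Wnt pathway lists (1 probe per gene, some genes in 2 lists) for BA+DMSO minus DMSO (left) and BA+rapamycin minus rapamycin (right), filled where the adjusted p was under 0.05. Sost and Wif1 are the 2 lowest points of the secreted inhibitors in both panels.

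Markers of several cell types were called between BA+DMSO and DMSO. Over all probes 9.65% were called higher and 10.8% lower in BA+DMSO than in DMSO. In whole tissue, fewer cells of a type and less RNA per cell cannot be told apart. Of 8 macrophage markers 7 were called higher in BA+DMSO than in DMSO, and their summed signal, in units of the array's 75th percentile, ranged over 111 to 141 (DMSO), 121 to 145 (rapamycin), 190 to 492 (BA+DMSO) and 379 to 506 (BA+rapamycin). Of 6 mesothelial markers 5 were called higher, but Upk1b and Lrrn4 passed the filter only through BA+DMSO, where they were high, and Msln alone of the 5 was well above background on all 12 arrays. The summed signals of the 6 were 0.567 to 3.41, 2.47 to 4.05, 6.82 to 14.8 and 1.55 to 11.9 for the groups in the same order. They include Upk1b and Lrrn4 and are a description without a test. Of 6 proliferation markers, Mki67 and Birc5 were well above background on all 12 arrays and were called higher. Cdk1, Top2a and Ccnb1 passed the filter only through challenged groups, where they were high, and Aurkb was not tested. The sums of the list were 1.24 to 1.39, 0.598 to 0.699, 11.6 to 56.2 and 10.7 to 13.6. They include Cdk1, Top2a and Ccnb1 and are a description without a test. Of 8 fibroblast markers 3 were higher, with sums of 1259 to 1606, 1394 to 1601, 1700 to 2882 and 2672 to 3050. Of 8 smooth muscle markers, which define the labelled tissue and were all measured, 2 were lower, with sums of 2914 to 3131, 2649 to 3097, 2461 to 4832 and 3479 to 4521. These sums are carried by the brightest probes, and the mean log2 level over the 8 went the other way in BA+rapamycin, at 6.76 (DMSO), 6.65 (rapamycin), 5.96 (BA+DMSO) and 5.94 (BA+rapamycin), with every BA+rapamycin array below every rapamycin array. Between BA+rapamycin and rapamycin limma called 6 of 8 macrophage markers (all higher), 0 of 6 mesothelial, 4 of 8 fibroblast (all higher) and 4 of 8 smooth muscle markers (1 higher and 3 lower), with Mki67 and Birc5 again higher, where 18.9% of all probes were higher and 22.9% lower. The part of these cell types in the values of the Wnt genes was not tested. Between rapamycin and DMSO, where Frat2 was selected, limma called 1 probe in all (0.0036%) and none of the markers. The summed proliferation markers, given above with their limit, were nonetheless lower in rapamycin without overlap. The mean log2 level of the 4 tested striated muscle markers was 0.26 to 0.45 in rapamycin and 0.85 to 1.49 in DMSO. That of the 4 tested neutrophil markers was higher in rapamycin, at 0.95 to 1.47, than in DMSO, at 0.31 to 0.91, although their sums overlapped. The part of these markers in the difference of Frat2 was not tested.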

How the data were processed

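RNA of mouse aorta, in 4 groups of 3 arrays, was measured on single-colour Agilent SurePrint G3 arrays. The authors deposited scanner files with each spot's processed signal, an intensity on a linear scale (Agilent Feature Extraction 10.7.1.1 per the file headers, 9.5.1.1 in the submitters' processing notes, build mm9), and a value table, whose intensity values followed quantile normalization of those signals. The scanner values were used and the table was an alternative.

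Control spots and outlier spots were left out, log2 signals of spots of a probe were averaged, and the 75th percentile of each array was subtracted. A probe was tested where at least 0.5 of its spots were well above background on all 3 arrays of a group (27801 of 55675 probes). Group means were fitted to all 12 arrays with limma 3.58.1 in R 4.3.3 and eBayes, two-sided, with Benjamini-Hochberg adjustment over all probes tested. The number of arrays limits the precision. The fit was tested on simulated data. The gene's probe was that with the highest mean over the 12 arrays.

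The genes and lists were chosen with earlier results of these data known. All their probes are named. From the lists, up to 5 called genes with the largest rise and up to 5 with the largest fall per comparison without overlap are named, and the called genes of lists with 5 or fewer calls. Btrc, Sfrp5, Myc, Apcdd1 and, under rapamycin, Cd44 and Ccnd1 were named after their values were seen. Some genes, on planar polarity and nuclear partners, stand in the closing section. Marker lists of further cell types are counted in the closing section.

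Titles of 10 arrays hold 1 of 5 dates, and replicates 2 and 3 of DMSO and rapamycin share one. What was done on these dates is not stated, and the date served as the replicate block. Alternatives changed scaling, background correction, filter, slide, date block, weights, brightness, prior, the arrays fitted and the call rule, and left out each array in turn.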

Additional observations from a re-analysis of the deposited data

How the results depend on the processing

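The results were recomputed under 14 alternatives and without each of the 12 arrays. Frat2 between BA+rapamycin and BA+DMSO kept its direction in all of those in which it was tested. It was called with the 75th percentile taken over probes well above background on every array (1.00) and ranged over 0.77 to 1.01 without single arrays. Between BA+DMSO and DMSO it lost its call under quantile normalization (0.51), the deposited table (0.52), no filter (0.69), the fixed slide block (0.88), array weights (0.55), brightness as a covariate (0.61), the fit of only those groups (0.69) and the p and fold rule (0.69), and ranged over 0.53 to 0.80 without single arrays, with the call lost in 8 of 12. Between rapamycin and DMSO, where it was selected, it fell short under quantile normalization (1.78), the other percentile (1.91), the deposited table (1.83), normexp (1.03), the fixed slide block (2.02) and, at 1.89, no filter, the trend and robust prior, the fit of only those groups and the p and fold rule, with 1.80 to 2.05 and the call lost in 10 of 12 without single arrays. Its difference between BA+rapamycin and rapamycin turned to 0.034 with normexp and was called at -0.39 with array weights, whose estimation did not converge. Its interaction, a description, ranged over -1.19 to -0.88 without single arrays. With the filter on all 12 arrays this probe was not tested. The causes were not tested.

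The replicate block by title date was fitted to the 10 arrays with a date in their titles, and 2 of the dates hold 1 array each. BA+DMSO is then 1 array, which shares no date with DMSO. In this fit Frat2 was 0.49 between BA+rapamycin and BA+DMSO, 1.02 between BA+DMSO and DMSO and 1.78 between rapamycin and DMSO, none called. For rapamycin alone this block called 0 of the 8 genes and 0 pathway genes (0% of all probes). For the challenge under rapamycin it called 1 and 17 (13% of all probes). For the challenge on vehicle, with 1 BA+DMSO array, no count is given. The block turned Sfrp2 to 0.74 (challenge) and -0.046 (rapamycin alone), and the interactions of Sfrp4 to -0.27 and of the second Frat2 probe to -0.32.

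Shares of all probes called under the same setting are given in brackets. For the challenge on vehicle 3 of the 8 genes and 26 pathway genes were called. Quantile normalization and the deposited table called 1 of the 8 (19.7% and 19.6%). No filter called 0 and 12 (7.65%), the fixed slide block 0 and 0 (0.054%) and the random slide block 5 and 40 (36.9%). Array weights called 0 and 0 (0.403%), the fit of only those groups 0 and 6 (4.47%), and the p and fold rule 0 and 2 (2.51%). Without single arrays they were 0 to 5 and 8 to 42 (7.13% to 38%). For rapamycin under challenge the other percentile called 1 and 2 (1.7%). Quantile normalization, the deposited table and brightness called 1 pathway gene each (0.802%, 0.799% and 1.12%). Without single arrays they were 0 to 5 and 0 to 34 (0.0993% to 39.5%). For rapamycin alone array weights called 3 and 7 (5.44%). Of either, 0 were called (0% to 0.0216%) with quantile normalization, the other percentile, the deposited table, normexp, the filter on all 12 arrays and no filter. The same held for the fixed slide block, the trend and robust prior, the fit of only those groups and the p and fold rule. Without single arrays 0 to 1 were called (0% to 0.0142%). For the challenge under rapamycin the fixed slide block called 2 of the 8 (28.5%), brightness 1 and 8 (6.42%), and the p and fold rule 0 and 7 (5.14%). Without single arrays they were 2 to 4 and 24 to 56 (23.2% to 56.8%). The interaction called 0 to 4 and 0 to 10, the highest without BA+DMSO replicate 2 (10.4%).

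Brightness as a covariate turned, between BA+rapamycin and rapamycin, Frat1 to 0.23, Ctnnb1 to 0.23, Frzb to 1.15 and the second Frat2 probe to -0.75. It also turned Sfrp2 (0.15) and the second Frat2 probe (-0.62) between BA+DMSO and DMSO, and the interactions of Ctnnb1 (0.24), Dkk3 (0.036) and the second Frat2 probe (-0.12). Normexp turned Frat1 (0.22) and Sfrp1 (-0.066) between BA+rapamycin and rapamycin, and the second Frat2 probe between rapamycin and DMSO (-0.0092). The other percentile turned Frzb between BA+rapamycin and rapamycin (0.012), and array weights Sfrp1 between BA+rapamycin and BA+DMSO (0.042) and the second Frat2 probe between BA+DMSO and DMSO (-0.27). Without single arrays, the challenge ranged over -0.68 to 0.32 for Sfrp2 and -0.026 to 1.11 for the second Frat2 probe, and rapamycin alone over -0.25 to 0.0057 for Ctnnb1, -0.0063 to 0.14 for Sfrp2 and -0.059 to 0.36 for the second Frat2 probe. Sfrp1 under challenge ranged over -0.51 to 0.10, and the interactions of Ctnnb1 over -0.88 to 0.0017 and of the second Frat2 probe over -0.077 to 1.06. Spots near background, as for Frat2, Dkk2 and Axin2, limit what could be measured.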

Other observations

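In the planar polarity branch, which orients cells within a sheet, 8 of 9 genes were tested. Vangl2, a core membrane component, was higher in BA+DMSO than in DMSO by 0.63 (SE 0.17, limma adjusted p = 0.0248), the single call there. The other tested probe of Vangl2 was not called in this comparison or under rapamycin. Between BA+rapamycin and rapamycin Prickle2 (1.51) and Vangl2 (0.78) were higher, and Daam2 (-1.88) and Celsr1 (-0.77) lower. Celsr1 had overlapping groups, and Daam2 was well above background on 2 of the 3 BA+rapamycin arrays. Of the 14 tested genes of beta-catenin and its nuclear partners, the challenge on vehicle called Tle1, a co-repressor of TCF factors, at -0.63. Under rapamycin it called Tle3 (1.18) higher and Tcf7l1 (-0.63), Tle1 (-0.76), Tle4 and Ctnnb1 (-1.17) lower. Tle4 was not well above background on any BA+rapamycin array and passed the filter only through DMSO and rapamycin, where it was high. Its bound was 0.618-fold, so a fall was not shown despite the call, and its other tested probe was not called.

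Between BA+DMSO and DMSO the calls in the other marker lists, each of them higher, were 1 of 4 tested neutrophil markers, 1 of 4 lymphocyte markers, 2 of 6 endothelial markers, 1 of 5 adipocyte markers (Ucp1, which passed the filter only through BA+DMSO, where it was high), 2 of 4 Schwann cell markers and 0 of 4 striated muscle markers with limma. Over all probes 9.65% were called higher in that comparison. Calls between BA+rapamycin and rapamycin included the neutrophil marker Csf3r (1.32, limma adjusted p = 0.0209) and the lymphocyte marker Cd3e (1.36, 0.00244), both higher. Of 6 endothelial markers 3 were called there, 1 higher and 2 lower, with Pecam1 among the lower (-0.87, limma adjusted p = 0.0256). Of 4 tested Schwann cell markers 1 was called higher, of 4 striated muscle markers 1 lower and of 5 adipocyte markers 0. These counts take no account of the group through which a marker passed the filter. There 18.9% of all probes were higher and 22.9% lower. The part of these markers in the values of the Wnt genes was not tested.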
